A study of Homo sapiens with 18 samples.

Results

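Messenger RNA levels of 49 genes of the WNT signalling pathway were examined in MCF10A cells, a non-tumorigenic human mammary epithelial line, from 2 knockout experiments. The genes were taken by name from 19401 genes listed in at least 1 of 3 deposited tables: every WNT ligand, every Frizzled receptor, and a named set of coreceptors, alternative receptors, secreted inhibitors, ligand-processing proteins, receptor turnover regulators, intracellular regulators and TCF/LEF factors. The 18 RNA sequencing libraries fell into 5 groups. The CBFB experiment had 3 libraries of 1 CBFB knockout (CBFB KO) clone and 3 wild type (WT) libraries. The RUNX1 experiment had 4 libraries of each of 2 RUNX1 knockout clones (RUNX1 KO1 and RUNX1 KO2) and 4 WT libraries. RUNX1 is a DNA-binding transcription factor and CBFB its partner subunit. Each knockout group was a single clone grown from 1 CRISPR-Cas9 edited cell, so that an effect of the knockout and a property of the clone cannot be told apart, and the cells carried no other labelled treatment. The labels do not say that the libraries of a group came from separate cultures.

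Secreted WNT proteins bind Frizzled receptors at the cell surface, together with LRP5 or LRP6. In the canonical branch this binding stops a complex built around AXIN and APC from marking beta-catenin for destruction, and beta-catenin then acts with TCF/LEF factors on target genes. Other WNT proteins signal through ROR or RYK receptors without beta-catenin. In the mammary gland the pathway is known for its part in duct development and in the basal and stem cell compartment.

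Each table listed, for every gene, 1 mean of normalized read counts over the knockout and WT libraries of 1 comparison, as computed by the authors: 6 libraries for the CBFB table, 8 for the RUNX1 KO1 table and 8 for the RUNX1 KO2 table. Values per library and per group were not analysed here. Each number below is therefore the authors' mean over knockout and WT cells together, with no standard deviation, and no difference between knockout and WT cells and no test of one is given. The sums of the means were 20214423, 18050386 and 16467400 in the CBFB, KO1 and KO2 tables. The lowest means of each table repeated exactly over at least 69 genes and were read as the value of 1 read in 1 library, which was 0.141 to 0.254 for CBFB, 0.114 to 0.136 for KO1 and 0.097 to 0.222 for KO2. Levels of different genes were compared after division by the length of the longest coding transcript and by the sum of the table, as mean normalized counts per kilobase and per 1000000 of the sum (called the level below). Neighbouring genes, at the end, are given by their undivided means. In bulk RNA, fewer cells expressing a gene and less RNA per cell cannot be told apart.

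The mammary epithelial label was checked on fixed markers. All 11 basal or epithelial markers were listed, and KRT5, a basal keratin, had means of 87894, 101688 and 95221 in the CBFB, KO1 and KO2 tables. The 3 endothelial and the 3 listed leukocyte markers were under 10 in every table. Among 7 fibroblast or mesenchymal markers, COL3A1 was not listed, DCN, LUM and PDGFRB were under 10, COL1A1 had means of 284, 305 and 236, PDGFRA 633, 554 and 466, and VIM, also expressed by cultured epithelial cells, had means of 3352, 674 and 560. Of 4 luminal hormone-responsive markers, PGR was not listed, ESR1 had means of 77.6, 59.9 and 53.9, GATA3 216, 258 and 271, and FOXA1 274, 231 and 210. KRT17, a keratin of basal cells, had means of 10527, 47912 and 68408. KRT14 had means of 4112 and 9515 in the CBFB and KO1 tables and was not listed in the KO2 table. The KO2 table is labelled as holding the same WT libraries as the KO1 table, so this missing row was not read as a lack of expression. The means of the targeted genes were 897, 1058 and 931 for CBFB and 1606, 922 and 839 for RUNX1. A mean over knockout and WT cells does not check a knockout label.

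The promoters of 3 members on which the comparisons below turned are shown as the 250 bases before the transcription start, from RefSeq on GRCh38.p14. WNT5B, a ligand, has 2 listed starts and was the member past the limit set in each of the comparisons between tables. WNT10A, another ligand, was past it between the RUNX1 tables, and LGR4, a receptor for R-spondins, was 1 of 6 members higher in the CBFB table, shown because its window holds the letters searched. Of the other 5, the windows of APC, TCF7 and TCF7L1 held none, and LRP6 and DKK3 were not searched. Capitals mark the letters TGTGGT, the core of the sequence that RUNX proteins bind, or ACCACA, the same letters on the other strand.
WNT5B first start (chr12:1616806-1617055, plus strand): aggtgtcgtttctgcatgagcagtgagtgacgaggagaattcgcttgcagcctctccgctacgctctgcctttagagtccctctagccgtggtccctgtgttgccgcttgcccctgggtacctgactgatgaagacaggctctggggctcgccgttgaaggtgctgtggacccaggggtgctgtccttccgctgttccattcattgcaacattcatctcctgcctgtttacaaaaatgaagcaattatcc
WNT5B second start (chr12:1628981-1629230, plus strand): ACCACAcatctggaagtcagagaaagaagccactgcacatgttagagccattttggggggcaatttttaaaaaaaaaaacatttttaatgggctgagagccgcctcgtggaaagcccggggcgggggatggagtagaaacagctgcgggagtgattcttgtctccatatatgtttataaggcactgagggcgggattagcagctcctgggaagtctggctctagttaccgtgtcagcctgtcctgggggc
WNT10A (chr2:218880602-218880851, plus strand): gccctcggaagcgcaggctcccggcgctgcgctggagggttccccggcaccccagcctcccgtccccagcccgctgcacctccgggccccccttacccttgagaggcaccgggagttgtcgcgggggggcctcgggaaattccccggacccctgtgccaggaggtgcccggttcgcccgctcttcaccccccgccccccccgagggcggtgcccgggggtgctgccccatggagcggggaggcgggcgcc
LGR4 (chr11:27472791-27473040, minus strand): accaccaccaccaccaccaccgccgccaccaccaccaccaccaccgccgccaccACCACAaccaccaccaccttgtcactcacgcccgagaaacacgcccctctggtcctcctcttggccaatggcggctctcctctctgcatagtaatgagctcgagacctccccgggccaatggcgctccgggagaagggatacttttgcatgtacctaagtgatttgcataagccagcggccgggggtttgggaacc
The second WNT5B window opened with 1 match, LGR4 held 1 match within a run of similar letters, and neither the first WNT5B window nor the WNT10A window held one. Promoters of 35 of the 49 members were searched, and 5 of these (14.3%) held the letters in at least 1 window: WNT5A, WNT5B, LGR4, RNF43 and LEF1. The letters stood in 13.2% of 27305 genes with a listed promoter and in 11.9% of the 14315 that were in any of the tables, so the members' share was near that of other genes. A match of 6 letters is a description and not a binding site, and no match says only that these letters are not in the window.

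Of the 49 members, 48 were listed in all 3 tables, and NKD2, an inhibitor that acts on Dishevelled, was listed only in the KO1 table with a mean of 2.92. A mean of at least 10 was reached by 38 members in any table and by 37 in each table. Means of at least 100 in each table were found for 24 members, while 11 were under 10 wherever they were listed. WNT6, WNT3A and ROR2 were under 1 in all 3 tables. The summed level of the members was 353, 280 and 274 in the CBFB, KO1 and KO2 tables, and the secreted inhibitors alone made up 163, 123 and 119 of it. Secreted inhibitors thus carried a larger summed level than the ligands (18.9, 19.5 and 19.0) and the Frizzled receptors (52.2, 41.5 and 40.3) in every table.

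**Figure D1:**
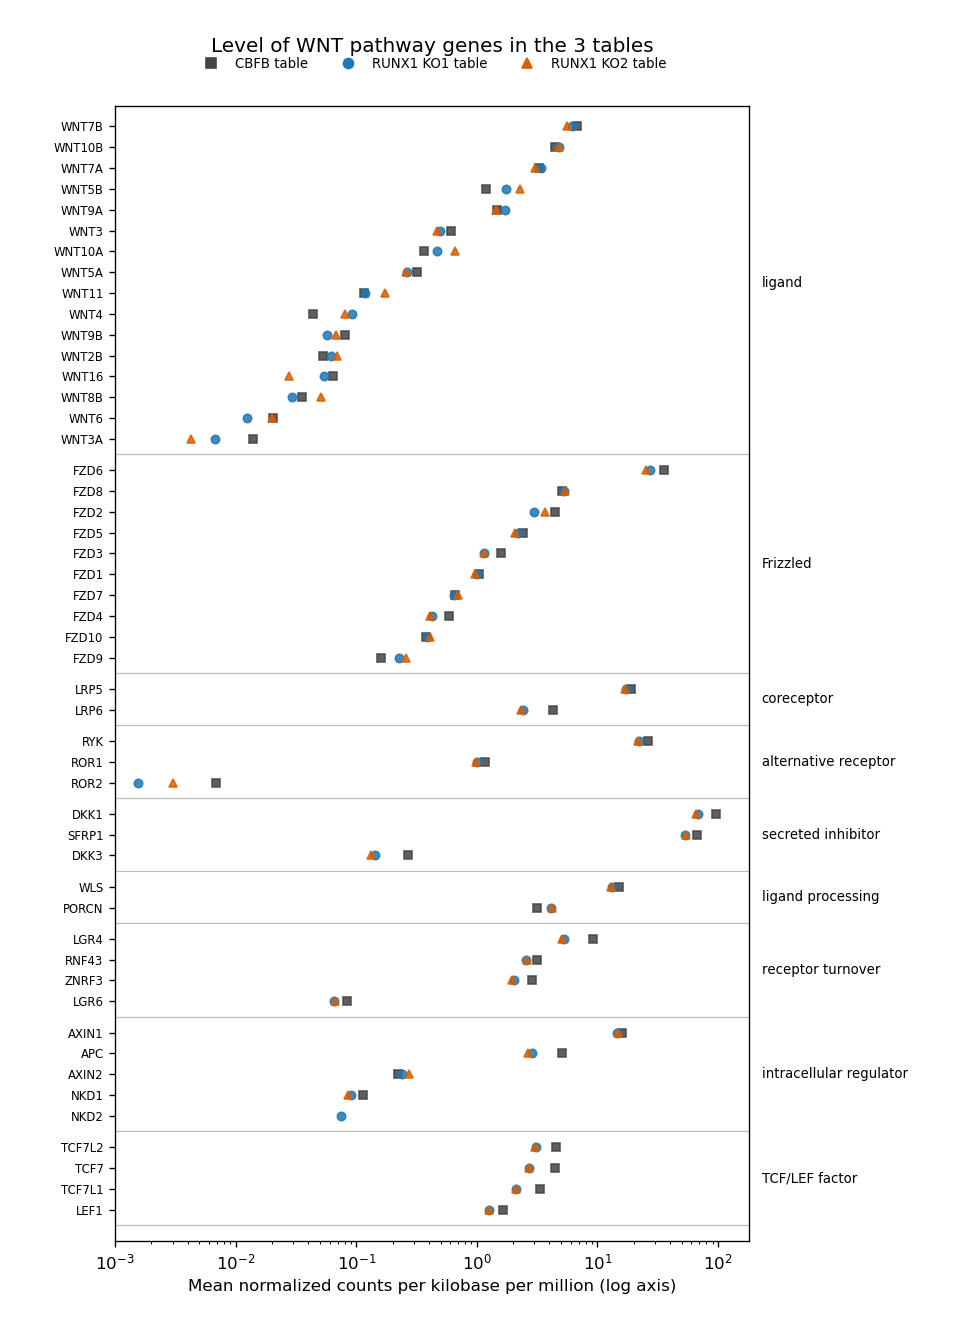
Level of each member as mean normalized counts per kilobase and per 1000000 of the table's sum (log axis), grouped by role, with 1 symbol per table (the authors' mean over knockout and WT libraries, no error available). DKK1 and SFRP1 lie highest, FZD6 stands above the other Frizzled genes, and the ligands spread from WNT7B at 5.63 to 6.81 down to WNT3A at 0.00423 to 0.0139.

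Among the ligands, 16 of the 19 WNT genes known to RefSeq were listed. WNT1, WNT2 and WNT8A were not. Of the 16, 9 had a mean of at least 10 in each table and 3 at least 100. WNT7B, a ligand of the canonical branch, had means of 539, 436 and 364 in the CBFB, KO1 and KO2 tables, and its paralog WNT7A had 267, 246 and 200. WNT10B, a canonical ligand known from early mammary development, had means of 205, 198 and 180. WNT7B, WNT10B and WNT7A were in this order of level in every table, with WNT7B making up 36.0%, 31.7% and 29.6% of the summed ligand level, WNT10B 23.6%, 24.8% and 25.2%, and WNT7A 17.3%, 17.3% and 15.8%. WNT9A had means of 117, 122 and 93.6. WNT5B, a ligand associated with the branch that does not use beta-catenin, had means of 55.3, 72.3 and 85.9, the lowest mean lying in the CBFB table and the highest in the KO2 table. By level, WNT5B stood below WNT9A in the CBFB table (1.19 against 1.46) and above it in the KO1 (1.74 against 1.70) and KO2 tables (2.27 against 1.43). WNT3 had means of 41.5, 30.1 and 25.7, WNT5A, the closest relative of WNT5B, 39.6, 29.5 and 26.3, WNT10A 18.8, 21.5 and 27.6, and WNT2B 11.6, 12.2 and 12.3. WNT5B and WNT10A were thus lowest in the CBFB table and highest in the KO2 table, the reverse of the order of the table sums. The unscaled means of WNT3 and WNT5A followed the order of the sums. Those of WNT2B lay close together. Its ratios, scaled as described below, had counting intervals of 0.772 to 1.51 (KO2 over KO1), 0.568 to 1.16 (CBFB over KO1) and 0.503 to 1.1 (CBFB over KO2). The remaining 7 ligands, WNT4, WNT6, WNT8B, WNT9B, WNT11, WNT16 and WNT3A, had means between 0.204 and 6.39.

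Close relatives among the ligands were unequal in level. The WNT5B level was 3.74, 6.58 and 8.75 times that of WNT5A in the CBFB, KO1 and KO2 tables, and the WNT10B level was 12.2, 10.3 and 7.31 times that of WNT10A. WNT7B and WNT7A were closer, at ratios of 2.08, 1.83 and 1.87. With the median in place of the longest transcript length, WNT7B against WNT7A came to 3.71, 3.26 and 3.33, so that this ratio depends on which transcripts the cells use.

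All 10 Frizzled genes were listed and 9 had a mean of at least 10 in each table. FZD6, a receptor known for planar cell polarity, led this family with means of 2744, 1863 and 1581 in the CBFB, KO1 and KO2 tables and made up 68.7%, 65.6% and 62.8% of the summed Frizzled level. FZD8 had means of 416, 383 and 359, FZD3, the relative closest to FZD6, 439, 282 and 261, and FZD5 325, 266 and 228. Because the listed FZD3 transcript is long, the FZD3 level lay below those of FZD8, FZD2 and FZD5 in each table, and the FZD6 level was 22.7, 23.9 and 22.0 times that of FZD3. FZD1 had means of 148, 127 and 111, and FZD2 189, 114 and 127. FZD4, the receptor for norrin as well as WNT proteins, had 86.9, 56.0 and 49.9, FZD7 51.5, 44.8 and 44.0, and FZD10 25.1, 22.6 and 21.9. FZD9 stayed under 10 at 7.62, 9.48 and 9.84. Without a spread between libraries, neighbours in this order cannot be said to differ.

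Both coreceptors of the canonical branch were expressed. LRP5 had means of 1988, 1594 and 1431 and LRP6 873, 435 and 383 in the CBFB, KO1 and KO2 tables, and the LRP5 level was 4.42, 7.12 and 7.25 times that of LRP6 (2.13, 3.42 and 3.49 times with median transcript lengths). Of the alternative receptors, RYK had means of 1564, 1164 and 1039, but has 1 named pseudogene with which it may share reads. ROR1 had means of 138, 107 and 95. ROR2, a receptor for WNT5A in other tissues, was at 0.563, 0.114 and 0.204, and its KO1 value equals that of 1 read in 1 library.

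DKK1, which blocks LRP5 and LRP6, had means of 3468, 2224 and 1923 in the CBFB, KO1 and KO2 tables, and SFRP1, which binds WNT proteins outside the cell, 6031, 4354 and 3990. The DKK1 level, at 95.8, 68.8 and 65.2, was the highest of all members in each table, and the SFRP1 level, at 66.4, 53.7 and 53.9, the next. DKK3, a relative of DKK1, was near the low limit at 14.3, 6.84 and 5.77.

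WLS, which carries WNT proteins to the cell surface, had means of 836, 656 and 583, and PORCN, the enzyme that adds their lipid, 119, 140 and 129. Of the 24 members of at least 100 in each table, PORCN was the 1 whose unscaled mean was lowest in the CBFB table. After the scaling described below, WNT10B, at 0.884 and 0.900 against KO1 and KO2, and FZD8, at 0.925 and 0.914, were below 1 as well. Of the receptor turnover genes, LGR4 had means of 958, 494 and 432. The ubiquitin ligases RNF43 and ZNRF3, which remove Frizzled from the membrane, had 356, 258 and 237, and 395, 251 and 219. LGR6 stayed between 3.93 and 6.01.

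Among the intracellular regulators, AXIN1, a scaffold of the destruction complex, had means of 1188, 958 and 894, and APC, another part of it, 1103, 550 and 463. AXIN2, a scaffold that is also a widely used target of the canonical branch, had means of only 19.1, 18.5 and 19.0, and the AXIN1 level was 72.8, 60.6 and 55.0 times that of AXIN2. With median transcript lengths these ratios were 19.6, 16.3 and 14.8. NKD1, an inhibitor of Dishevelled and likewise a known target, had means of 38.9, 27.7 and 24.1. All 4 TCF/LEF factors were expressed. TCF7L2 had means of 380, 231 and 205, TCF7 301, 164 and 149, TCF7L1, the member best known as a repressor, 202, 114 and 103, and LEF1 115, 78.9 and 72.7. Each of the 4 had its highest mean in the CBFB table, but these means were not scaled. Before scaling, the median gene was also higher there, at 1.17 times the KO1 and 1.27 times the KO2 table.

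The next question was whether the RUNX1 clones differed. The KO1 and KO2 tables are labelled as comparisons with the same 4 WT libraries, so the ratio of their means moves with the clones. It also moves with any difference between the libraries of the clones, which was not tested. The tables listed 18517 and 18117 genes. The size factors of their libraries, as implied by the 1-read means, spanned 0.921 to 1.10 and 0.562 to 1.29. Each ratio was divided by its median over 13227 genes with an averaged mean of at least 10 (0.933 before division). If the WT libraries are the same and the median gene is equal in both clones, such a ratio is nearer 1 than the fold between the clones. No test was possible on 1 mean per table, and a limit of over 25% higher or over 20% lower was used as a description, with a 95% interval for counting error only, which leaves out the spread between libraries.

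WNT10A and WNT5B were the 2 of 37 members past this limit, both over 25% higher in the KO2 table, against 7.11% of all 13227 genes. None of the 37 was past it in the lower direction, against 1.35% of all genes. The members' share of 5.41% was thus near the background. For WNT10A, with means of 21.5 and 27.6 in the KO1 and KO2 tables, the scaled ratio was 1.37 (interval 1.09 to 1.74). For WNT5B, with 72.3 and 85.9, it was 1.27 (1.12 to 1.45). If the conditions above hold, the WT mean of WNT5B was at most 145 and the mean of the KO2 clone exceeded that of the KO1 clone by 39.7 normalized counts, a fold of at least 1.27 before counting error. The same difference was 16.1 for WNT10A. Just inside the limit were FZD2 at 1.19 (1.07 to 1.32) and, in the lower direction, WNT9A at 0.823 (0.733 to 0.924) and WNT7A at 0.873 (0.806 to 0.946). The ligands therefore held both the highest and the lowest of the 37 ratios. Of 10 basal or epithelial markers measured in both tables, 3 were past the limit in the same direction, KRT17 at 1.53, KRT18 at 1.40 and KRT8 at 1.38, and 0 in the lower direction. The summed level of the whole list of 11 was 7744 and 8474 in the KO1 and KO2 tables, with KRT14 listed only in the former of these, and its part in the ligand ratios was not tested.

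**Figure D2:**
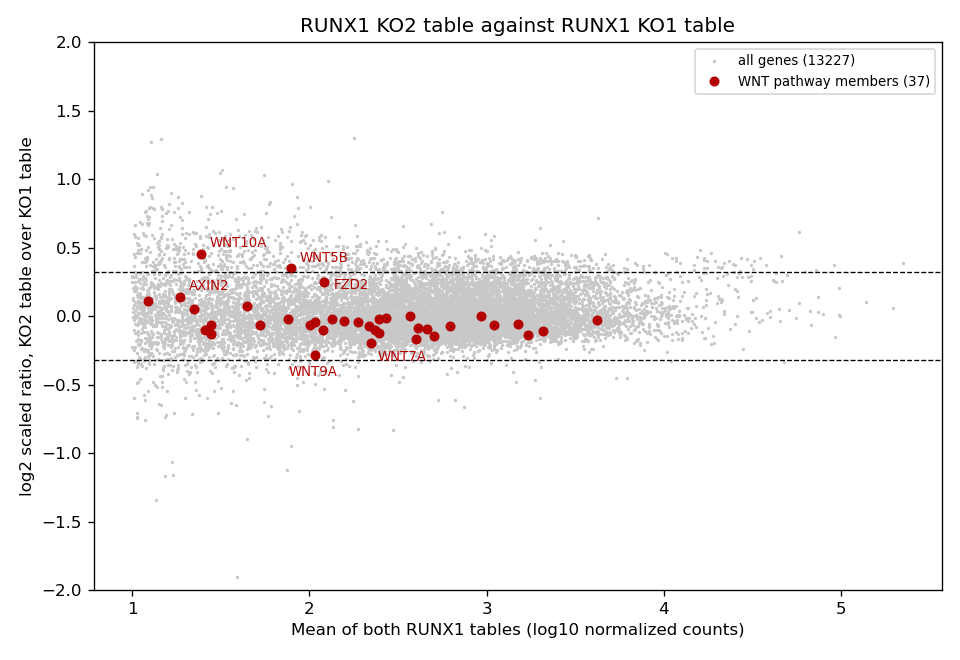
The log2 scaled ratio of the KO2 table mean to the KO1 table mean (vertical axis) against the average mean of both tables in log10 normalized counts (horizontal axis), for 13227 genes in grey and 37 members in red, with dashed lines at 25% higher and 20% lower and axes cut at 4-fold. WNT10A and WNT5B lie above the upper line, no member lies below the lower one, and FZD2 and WNT9A are nearest to the lines from inside.

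The other members kept closer to 1. The median scaled ratio of the 37 members was 0.958, against 1 for all genes by construction, and 8 of them were above 1. DKK1 was at 0.927, SFRP1 at 0.982, FZD6 at 0.910, LRP5 at 0.962, AXIN1 at 1 and the 4 TCF/LEF factors between 0.950 and 0.988. AXIN2, with means of only 18.5 and 19.0 in the KO1 and KO2 tables, was at 1.10, with an interval of 0.841 to 1.45. The ratio followed base composition: across 13010 genes Spearman's rho was 0.41 with the GC content of the transcript and -0.48 with its length (a description, since the genes share the same libraries). GC contents were 65.4% for WNT10A and 58.6% for WNT5B. Against genes of like GC content, WNT10A came to 1.24 and WNT5B to 1.21, so neither was past the limit, while WNT9A passed it in the lower direction at 0.781. Against genes of like length, WNT10A stayed past the limit at 1.32 and WNT5B did not at 1.22, and the shares of all genes past it became 3.70% higher and 2.34% lower. The part of GC content and length in these ratios was not tested.

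The CBFB table was then set against both RUNX1 tables. The knockout, the WT libraries and any other difference between the experiments cannot be told apart in these means. Ratios were scaled in the same way (medians of 1.17 against KO1 and 1.27 against KO2 before division), and a member was counted where it was past 1.5-fold in the same direction against both RUNX1 tables, which share WT libraries and so are not independent. Of 38 members, 6 were higher in the CBFB table, or 15.8%, against 9.03% of 13243 genes, and 1 was lower, or 2.63%, against 6.52%. The 6 include DKK3, which could pass the minimum averaged mean only by being higher in the CBFB table.

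The 6 were APC, LRP6, LGR4, TCF7, TCF7L1 and DKK3, which act at different steps of the pathway. APC was at 1.71 (1.64 to 1.79) against KO1 and 1.88 (1.78 to 1.98) against KO2, and LRP6 at 1.71 (1.63 to 1.80) and 1.80 (1.70 to 1.90). LGR4 was at 1.65 (1.58 to 1.73) and 1.75 (1.66 to 1.85). The TCF factors were nearer to the limit. TCF7 was at 1.57 (1.45 to 1.70) and 1.60 (1.45 to 1.76), and TCF7L1 at 1.51 (1.37 to 1.67) and 1.55 (1.38 to 1.74). DKK3 had the widest interval of the 6, at 1.79 (1.22 to 2.61) and 1.96 (1.23 to 3.11). The DKK3 means were 6.84 and 5.77 in the KO1 and KO2 tables. DKK3 met the minimum averaged mean of 10 only because its CBFB mean was 14.3. It could thus enter this comparison only as higher in the CBFB table, and its place among the 6 is not informative. The 1 member lower in the CBFB table was WNT5B, at 0.653 (0.557 to 0.764) against KO1 and 0.507 (0.430 to 0.599) against KO2. WNT5B did not pass the limit against KO1 after scaling by the table sums (0.683) or with a pseudocount of 5 (0.669), and with that pseudocount neither did DKK3 (1.40) nor TCF7L1 (1.49).

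**Figure D3:**
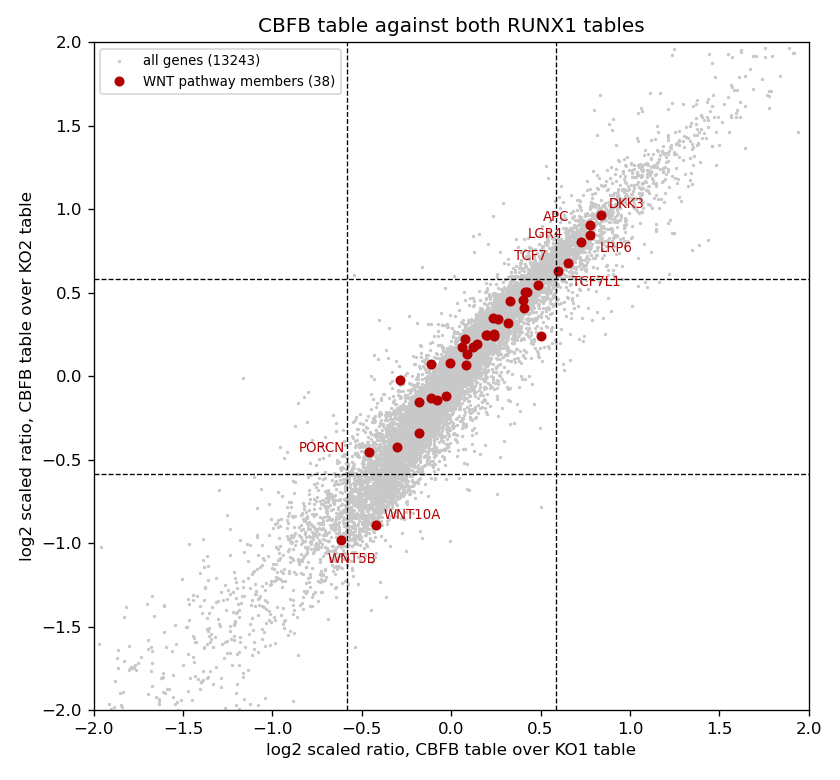
The log2 scaled ratio of the CBFB table mean to the KO1 table mean (horizontal axis) and to the KO2 table mean (vertical axis), for 13243 genes in grey and 38 members in red, with dashed lines at 1.5-fold and axes cut at 4-fold. APC, LRP6, LGR4, TCF7, TCF7L1 and DKK3 lie in the upper right corner and WNT5B in the lower left. The axes share the CBFB table and the RUNX1 experiment WT libraries, so points fall along the diagonal.

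Members near the limit without passing it against both tables were TCF7L2 at 1.40 and 1.46, FZD2 at 1.42 and 1.18, DKK1 at 1.33 and 1.42, and ZNRF3 at 1.34 and 1.42. In the other direction, WNT10A was at 0.746 and 0.538 and PORCN at 0.727 and 0.730. By role, the median ratios against KO1 and KO2 rest on few genes. They were 1.46 and 1.5 for 4 TCF/LEF factors and 1.39 and 1.45 for 2 coreceptors. For 3 receptor turnover genes they were 1.34 and 1.42, and for 3 secreted inhibitors, DKK3 among them, 1.33 and 1.42. Medians were 1.13 and 1.16 for 4 intracellular regulators and 1.12 and 1.16 for 2 alternative receptors. The 9 Frizzled genes had 1.04 and 1.13, the 2 ligand-processing genes 0.907 and 0.93, and the 9 ligands 0.884 and 0.985. Over the 38 members the medians were 1.15 and 1.18. LRP5, AXIN1 and RNF43, the relatives of LRP6, AXIN2 and ZNRF3, were at 1.06 and 1.10, 1.06 and 1.05, and 1.18 and 1.18. Unlike LRP6 and ZNRF3, AXIN2 was below 1, at 0.881 (0.665 to 1.17) and 0.792 (0.581 to 1.08), with intervals that held 1.

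These ratios too followed base composition. Across 13453 genes the ratio to KO1 had a Spearman's rho of -0.48 with GC content and 0.46 with transcript length. Its median went from 1.21 in the fifth of genes with the lowest GC content to 0.838 in the fifth with the highest. Over the 38 members rho with GC content was -0.43. APC, LRP6 and LGR4 had GC contents of 39.6%, 40.2% and 42.1%, at the end where ratios were high, whereas TCF7 and TCF7L1 had 57.1% and 61.2%, where the median ratio was below 1. WNT5B, at 58.6%, was at the end where ratios were low. Against genes of like GC content, APC came to 1.43 and 1.49, LGR4 to 1.47 and 1.49, and WNT5B to 0.743 and 0.615, none of them past the limit against both, while LRP6 stayed just past at 1.51 and 1.51 and TCF7, TCF7L1 and DKK3 stayed past it. FZD2 passed it as well, at 1.80 and 1.65. On this scale 5 of 38 members, DKK3 among them, were higher, against 6.64% of all genes, and 0 were lower, against 5.42%. Against genes of like length, DKK3, TCF7 and TCF7L1 stayed past it and APC, LRP6, LGR4 and WNT5B did not. DKK1 passed it at 1.52 and 1.79, and WNT2B in the lower direction at 0.605 and 0.521. By length, 4 of 38 members, DKK3 among them, were thus higher, against 6.02% of all genes, and 1 was lower, against 6.31%. The part of GC content and length was not tested. VIM, which was 4.24 and 4.72 times higher in the CBFB table on the same scale, and KRT17, at 0.187 and 0.121, differed by more than any of the 38 members. Of 10 basal or epithelial markers measured in all 3 tables, 2 were past the limit, KRT17 and KRT8, both lower, against 6.52% of all genes. The other 8 were within it. The summed level of the fibroblast or mesenchymal list was 84.6, 24.8 and 22.5 in the CBFB, KO1 and KO2 tables. VIM alone held 77.7, 17.5 and 15.9 of it. Of its 3 markers with a mean of at least 10 in each table, VIM was the 1 past the limit, against 9.03% of all genes higher. COL1A1, at 0.795 and 0.951, and PDGFRA, at 0.974 and 1.07, were within it. The part of either list in the members' ratios was not tested.

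**Figure D4:**
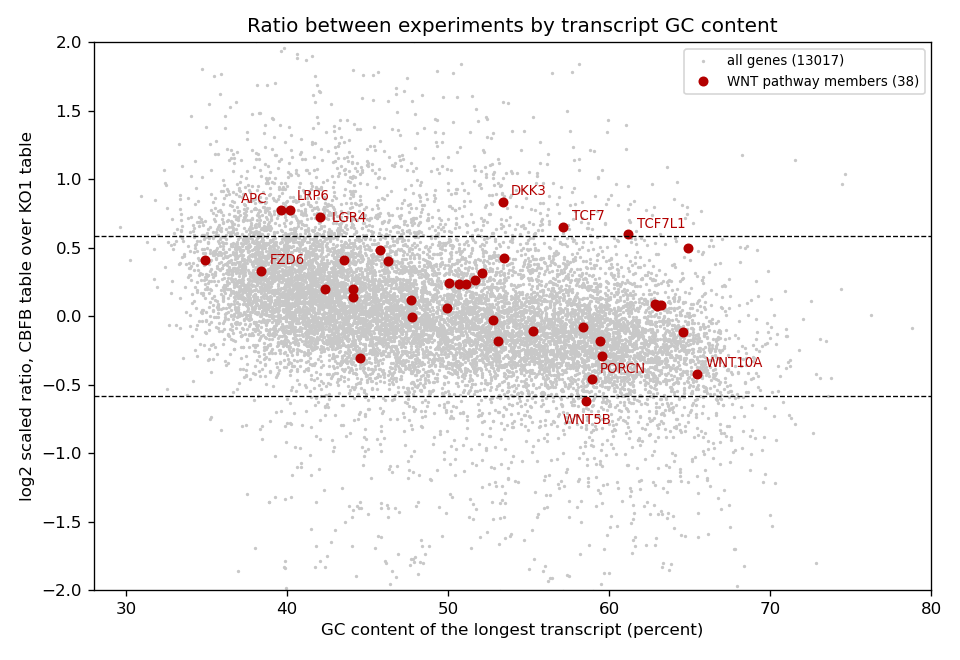
The log2 scaled ratio of the CBFB table mean to the KO1 table mean (vertical axis) against the GC content of the longest transcript in percent (horizontal axis), for genes in grey and 38 members in red, with dashed lines at 1.5-fold and the vertical axis cut at 4-fold. The grey cloud falls from left to right (Spearman's rho -0.48). APC, LRP6 and LGR4 lie at the left and TCF7 and TCF7L1 above the cloud at the right.

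A fixed list of 67 other pathway genes gave the setting of the members. Of these, 63 were listed and 48 had a mean of at least 10 in each table. All 25 genes of signal transduction and all 10 of planar polarity were in this group, but only 5 of 23 secreted or membrane modulators. CTNNB1, which encodes beta-catenin, had means of 7992, 6957 and 5950 in the CBFB, KO1 and KO2 tables. The known targets MYC and CD44 had 7954, 6758 and 6350, and 9735, 7068 and 6068, and CCND1, another, 4906, 5119 and 5278. The targets JUN, PPARD and BAMBI had means of 1277, 1017 and 822, of 721, 638 and 554, and of 158, 211 and 198. The remaining targets of this list were low. Means were 19.95, 11.95 and 12.04 for SP5, 12.93, 15.22 and 12.01 for TNFRSF19, and between 1.002 and 1.418 for FGF18. LGR5, NOTUM, SFRP4 and RSPO4 were not listed, and the 3 listed R-spondin genes RSPO1, RSPO2 and RSPO3, ligands of LGR4, were under 10. Between the RUNX1 tables, 1 of the 48 was past the 25% limit (against 7.11% of all genes), KREMEN2, a DKK1 receptor, with means of 188 and 240 in the KO1 and KO2 tables and a scaled ratio of 1.37 (1.26 to 1.48), and 0 were past it in the lower direction (against 1.35%). Between the experiments, 3 of 48 were higher in the CBFB table (against 9.03% of all genes): EP300 and CREBBP, coactivators of beta-catenin, at 1.92 and 2.11 and at 1.62 and 1.70, and TNKS, an enzyme that destabilizes AXIN, at 1.59 and 1.68. Another 3 were lower (against 6.52%): KREMEN2 at 0.498 and 0.360, TLE2, a corepressor of TCF factors, at 0.467 and 0.422, and the target BAMBI at 0.639 and 0.627. These counts were not above the background. KREMEN2 had the order of tables that WNT5B and WNT10A had, and so did others of the list, among them CCND1, TLE2, CTNNBIP1 and PRICKLE1.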

How the data were processed

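RNA from MCF10A cells was sequenced in 18 libraries. The submitters' processing notes name Trimmomatic, STAR, DESeq2 and hg19 without versions; the read counter and gene annotation are not given in the sources used here. The labels name an mRNA kit and the study's methods ribosomal RNA removal. The authors deposited 3 tables with 1 signal value per gene, the mean of size-factor-normalized read counts over knockout and WT libraries. The other 5 value columns of each table hold the authors' own comparison (fold change, its error, test statistic, p-value and adjusted p-value) and were not used, so no test was run.

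Genes were joined by Entrez identifier. Levels used GENCODE 29 transcript lengths. Ratios between tables were divided by the median over genes with an averaged mean of at least 10. The 95% intervals cover counting error only and treat the 2 means of a ratio as independent. Size factors implied by the 1-read means spanned 0.657 to 1.18, 0.921 to 1.10 and 0.562 to 1.29 in the CBFB, KO1 and KO2 tables. Every member with a mean of at least 10 in any table was named with its values, the others by range, and ratios were given for members past a fold limit or near it. Other scalings, minimum means, pseudocounts and folds were tried. Members, lists and limits were chosen with earlier results of these data known. Scripts were tested on simulated data (Python 3.11.15, pandas 2.3.3, NumPy 2.4.6, SciPy 1.17.1).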

Additional observations from a re-analysis of the deposited data

How the results depend on the processing

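The tables hold 1 mean per gene over knockout and WT libraries, so depth per library and spread between libraries are unknown here. No paired analysis was possible because the tables hold no value per library, and leaving out single replicates was not run for the same reason. The count of members past the limit of 25% higher or 20% lower between the RUNX1 tables was 2 of 37 as reported, against 8.45% of all genes. It became 1 of 29 with a minimum mean of 50 (6.3% of all genes) and 8 of 48 with no minimum (19.2%). With a fold of 1.5 it was 0 of 37 (1.19%). Against genes of like GC content or of like transcript length it was 1 of 37 (6.76% and 6.04%). The last 2 alternatives were chosen after seeing the data. The count past 1.5-fold between the experiments was 7 of 38 as reported, DKK3 among them, against 15.6% of all genes. It became 4 with a pseudocount of 5 (APC, LGR4, LRP6 and TCF7), against 14% of all genes, and 0 with a fold of 2, against 5.2%. Against genes of like GC content or of like transcript length, again chosen after seeing the data, it was 5 of 38 (12.1% and 12.3%). Scaling by the sums of the tables gave 2 and 6, against 9.92% and 16.7% of all genes, without WNT5B in the second. Of 36 values for single members past a limit under another scaling or a pseudocount, 28 moved by less than the counting interval, 8 by more and 0 turned direction. All 8 arose against genes of like GC content or of like transcript length. They belonged to APC, LGR4, LRP6, TCF7 and TCF7L1 in the comparison between the experiments.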

Other observations

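Several WNT genes lie beside each other in the genome, and 1 gene of each such pair was far better expressed than the other. In RefSeq order, WNT9A on chromosome 1 is separated from WNT3A by 1 gene, and their means were 117, 122 and 93.6 against 0.824, 0.355 and 0.204 in the CBFB, KO1 and KO2 tables. WNT10A on chromosome 2 is next to WNT6, with means of 18.8, 21.5 and 27.6 against 0.699, 0.379 and 0.563. WNT3 and WNT9B adjoin on chromosome 17, with 41.5, 30.1 and 25.7 against 4.34, 2.73 and 2.95. WNT10B on chromosome 12 adjoins WNT1, which was not listed. These means were not divided by transcript length, but the order within each pair with both genes listed was the same by level. No test was run.

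APCDD1, a membrane inhibitor of WNT signalling, had means of 0.905, 8.77 and 10.8 in the CBFB, KO1 and KO2 tables, chosen here after its values were seen.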
